A study of Mus musculus with 6 samples.

Results

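The genes of the IL-1, IL-6, LIF and TNF signals were followed across 6 microarrays of mouse gonadal cells: the ligands Il1a, Il1b, Il6, Lif and Tnf, the antagonist Il1rn, and the receptor genes Il1r1, Il1rl1, Il6ra and Il6st. They are a fixed list of gene names, drawn up with earlier results of these data known. Of these 10 genes, 9 had a probe in the array's gene table, with 10 probes between them, out of 19084 genes and 26423 probes in all. Il1rl1, the receptor of IL-33, was not listed there and is not analysed here. Of the 9, 8 passed the filter on low signal that left 15459 genes for testing, and Il1rn did not. Il6 and Lif passed it only through the colony arrays, where they were higher, so that a difference from sorted cells was built into their being tested.

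The arrays (1 colour, Cy5) fell into 3 groups of 2, all from ICR mice with no transgene or deletion named. For PGC colonies, gonads of 67 E11.5 embryos were pooled, and for GSC colonies, testes of 80 mice aged between birth and P2. Both had been seeded on laminin (200 ng/cm2) and grown for 7 days at 5% O2 with insulin, transferrin, selenium and epidermal growth factor (10 ng/ml), after which colonies were picked. CD49f+ sorted cells were testicular cells pooled from 100 mice of that postnatal age, enriched on a magnetic column through an antibody against CD49f, an integrin subunit, and not cultured. The labels call the cells primordial germ cells (PGC) and glandular stem cells (GSC) and give no sex for the embryos. Separate preparations behind the 2 arrays of each group are not stated, so the p-values cover the spread of these arrays, possibly a technical one.

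IL-1α, IL-1β and TNF are alarm cytokines made mainly by macrophages and other innate cells. They act through receptors such as IL1R1 and TNFR1 on the transcription factors NF-κB and AP-1, and IL1RN blocks IL1R1 without signalling. IL-6 and LIF belong to a family whose receptor complexes share the subunit gp130, encoded by Il6st, and signal through JAK kinases and STAT3; LIF is known for keeping mouse embryonic stem cells undifferentiated and as a survival factor for cultured primordial germ cells. IL-6 and LIF are also secreted by fibroblasts and other stromal cells, in which IL-1 and TNF are well known inducers of Il6.

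The promoters of 2 ligand genes that were higher in colonies, Il6 and Lif, and of 2 that were higher in sorted cells, Il1b and Tnf, are shown here because these are the genes on which the groups divided. Each line gives the 250 bases before a transcription start in RefSeq, build GRCm38.p6, written 5′ to 3′ along the gene. Capitals mark letters of the NF-κB type (GGNNTTTCC, a loose form), the AP-1 type (TGANTCA), the C/EBP type (TTGNNCAA) or the STAT type (TTCNNNGAA), searched on both strands.
Il6, chr5:30012864-30013113, plus strand: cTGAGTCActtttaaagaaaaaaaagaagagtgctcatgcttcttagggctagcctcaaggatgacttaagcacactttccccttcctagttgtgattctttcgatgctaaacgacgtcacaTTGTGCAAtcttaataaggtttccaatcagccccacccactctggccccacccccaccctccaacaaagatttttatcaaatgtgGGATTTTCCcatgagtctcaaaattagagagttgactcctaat
Lif, chr11:4257318-4257567, plus strand: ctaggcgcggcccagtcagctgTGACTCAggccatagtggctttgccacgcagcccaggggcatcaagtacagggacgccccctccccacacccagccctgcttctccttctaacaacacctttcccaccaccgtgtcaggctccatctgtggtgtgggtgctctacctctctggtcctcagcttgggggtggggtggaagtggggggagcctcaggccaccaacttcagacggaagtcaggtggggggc
Il1b, chr2:129371140-129371389, minus strand: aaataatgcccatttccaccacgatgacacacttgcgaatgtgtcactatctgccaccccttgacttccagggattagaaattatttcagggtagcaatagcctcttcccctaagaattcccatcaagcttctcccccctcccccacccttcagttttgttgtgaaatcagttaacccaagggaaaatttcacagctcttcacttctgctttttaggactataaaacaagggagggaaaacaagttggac
Tnf, chr17:35202008-35202257, minus strand: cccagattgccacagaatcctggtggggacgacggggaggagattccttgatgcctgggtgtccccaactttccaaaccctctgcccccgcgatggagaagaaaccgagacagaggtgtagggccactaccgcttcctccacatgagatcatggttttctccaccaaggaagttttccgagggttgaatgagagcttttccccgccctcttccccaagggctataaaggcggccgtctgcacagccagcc
The Il6 window held the NF-κB letters at bases -43 to -35, counted back from the start, the C/EBP letters at -128 to -121 and the AP-1 letters at -249 to -243. The Lif window held the AP-1 letters at -228 to -222. The Il1b and Tnf windows held none of the 4 letter patterns, which says only that these letters are not in these windows. The window of Il1a, a ligand that was lower in GSC colonies than in sorted cells, is not shown. It held the AP-1 letters at -12 to -6, so these letters did not divide the ligands by direction. Windows of Il1rn, which was not tested, held the AP-1 and the NF-κB letters. The letters TATAAA and ACGTCA were also searched and are not marked. TATAAA was in the Il1a, Il1b and Tnf windows and ACGTCA in the Il6 window (12.4% and 6.47% of all windows). What any of these letters do in these cells was not tested. Of 32851 RefSeq windows of this length, 4.93% held the NF-κB letters, 6.75% the AP-1 letters, 5.65% the C/EBP letters and 7.02% the STAT letters; the patterns did not overlap in the windows shown.

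Il6, Lif, Il1r1 and Il6st were higher in PGC colonies and in GSC colonies than in sorted cells, and Il1b and Tnf were lower in both. Il1a was lower in GSC colonies than in sorted cells. Against sorted cells, 4 of the 8 tested members rose and 2 fell in PGC colonies, where 46% of all genes were called (22.8% higher, 23.2% lower). In GSC colonies 5 rose and 3 fell, where 47.1% of all genes were called (22.5% higher, 24.5% lower). Without normalization between arrays, 7573 genes were higher and 1838 lower in PGC colonies against sorted cells, compared with 3517 and 3594 with it, and 8179 and 1732 in GSC colonies, compared with 3486 and 3793. A gene was called at an adjusted p under 0.05 in limma's moderated test with Benjamini-Hochberg adjustment over all genes tested, with 2 arrays per group. Levels are log2 intensities after normalization between arrays, and differences are on the same scale with their SE. The median difference was 0.50 over the members in PGC colonies and 1.27 in GSC colonies, against -0.02 and -0.01 over all genes tested. Il6 and Lif, which passed the filter only through the colony arrays, are among the members that rose and enter these medians. The counts and medians thus describe the members tested and support no shift of the set. Since the arrays measure a mixture of cells, fewer cells of a type and less RNA per cell cannot be told apart.

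**Figure D1:**
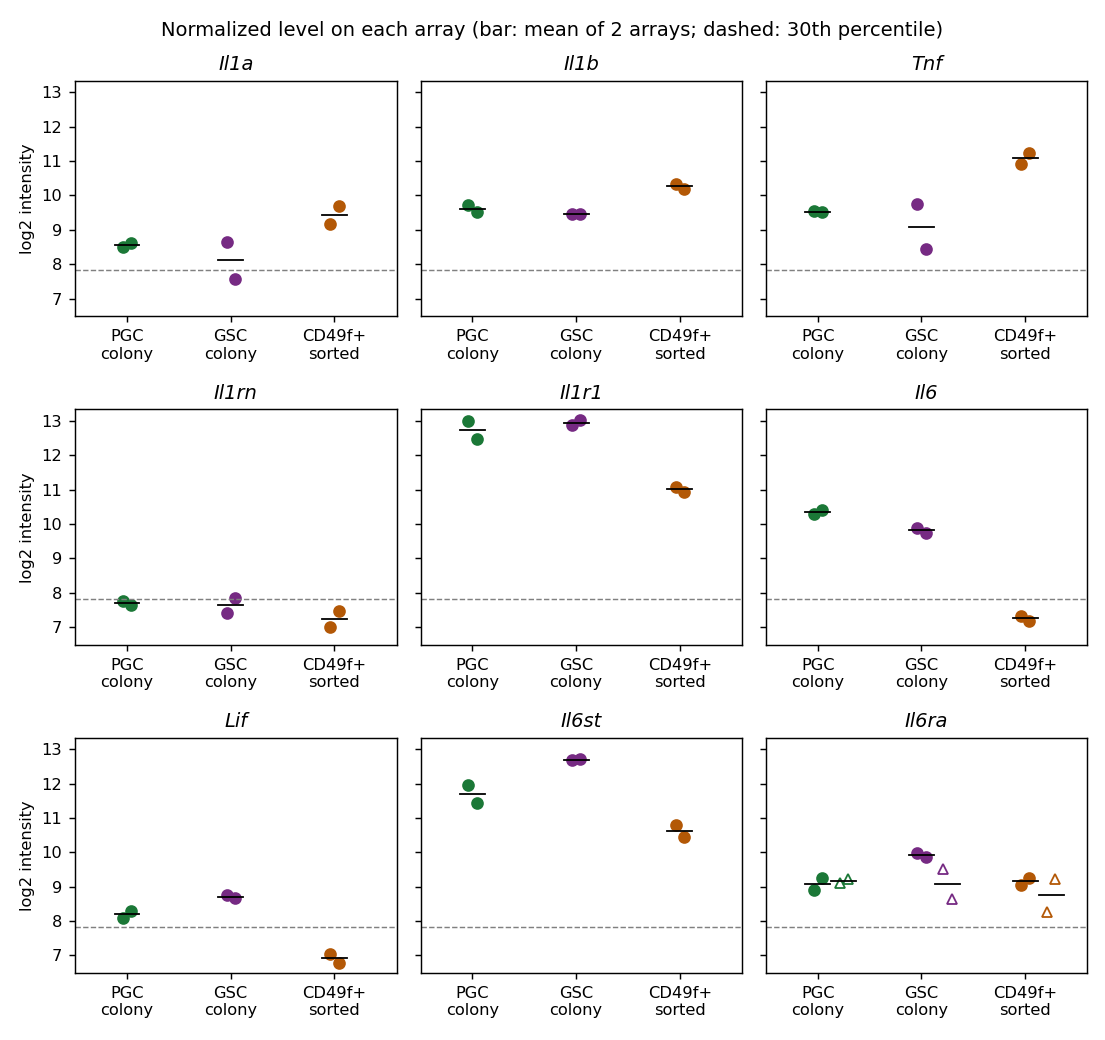
Normalized log2 intensity of the 9 members with a probe, by group, with 1 point per array, a bar at the mean of 2 arrays and a dashed line at the 30th percentile of all probes (7.82). Open triangles are the other Il6ra probe; Il6 and Lif lie above the line on all 4 colony arrays and below it on both sorted arrays, and Il1a, Il1b and Tnf lie highest on the sorted arrays.

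Il6, the gene of the cytokine itself (probe PH_mM_0000958), measured 10.28 and 10.40 in PGC colonies, 9.87 and 9.75 in GSC colonies, and 7.33 and 7.18 in sorted cells. In deposited intensity this was 1339 and 1409, 1027 and 924, and 78.5 and 59.5. All 4 colony arrays lay above both sorted arrays, and the sorted arrays lay under the 30th percentile of all probes (7.82), which served as the lower limit of measurement because the table carries no detection calls. With both arrays of a group below it, a fold is given as a lower bound against that limit. Il6 was at least 5.74-fold higher in PGC colonies (limma adjusted p = 8.8e-06) and at least 3.96-fold higher in GSC colonies (adjusted p = 1.4e-05) than in sorted cells.

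Lif, which encodes leukaemia inhibitory factor (probe PH_mM_0001600), is made by stromal cells among others. It measured 8.10 and 8.29 in PGC colonies, 8.75 and 8.66 in GSC colonies, and 7.04 and 6.79 in sorted cells. The 3 groups did not overlap, with GSC colonies highest and sorted cells under the limit on both arrays. Lif was at least 1.30-fold higher in PGC colonies (limma adjusted p = 0.00046) and at least 1.85-fold higher in GSC colonies (adjusted p = 0.00011) than in sorted cells.

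The ligands Il1a, Il1b and Tnf had the opposite order. Tnf (probe mMC016605) measured 9.54 and 9.52 in PGC colonies, 9.74 and 8.43 in GSC colonies, and 10.93 and 11.23 in sorted cells. Both sorted arrays were above all colony arrays, and the GSC colony arrays differed from each other by more than the PGC colony arrays did. Tnf fell by 1.99 ± 0.39 in GSC colonies against sorted cells (adjusted p = 0.0068) and by 1.54 ± 0.39 in PGC colonies (adjusted p = 0.019). The call in PGC colonies was lost without normalization between arrays (adjusted p = 0.054) and on leaving out either sorted or either PGC colony array (adjusted p = 0.053 to 0.10).

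Il1b, the gene of the secreted IL-1 that is cut to its active form by caspase-1 (probe mMC010962), measured 9.72 and 9.51 in PGC colonies, 9.47 and 9.47 in GSC colonies, and 10.33 and 10.20 in sorted cells. The sorted arrays were again the highest, and the colony groups lay close together. Il1b fell by 0.66 ± 0.12 in PGC colonies (adjusted p = 0.0054) and by 0.80 ± 0.12 in GSC colonies (adjusted p = 0.0022). Without normalization between arrays both calls were lost (adjusted p = 0.17 and 0.061), with differences of -0.23 and -0.33 while the median gene shifted by 0.42 and 0.47; relative to that median the differences were -0.65 and -0.80.

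Il1a, whose product is active without cleavage (probe PH_mM_0009331), measured 8.49 and 8.62 in PGC colonies, 8.65 and 7.58 in GSC colonies, and 9.18 and 9.69 in sorted cells. The sorted arrays did not overlap with either colony group, and GSC colony replicate 2 lay under the limit of measurement. Il1a fell by 1.32 ± 0.35 in GSC colonies (adjusted p = 0.022), a call lost without CD49f+ sorted replicate 2 (-1.07, adjusted p = 0.11), without either PGC colony array (adjusted p = 0.057 and 0.056), in a fit of the 4 arrays compared (0.057) and without normalization between arrays (0.055). In PGC colonies the difference of -0.88 ± 0.35 did not pass (adjusted p = 0.089), and it did in a fit of the 4 arrays compared (0.0038) and on leaving out GSC colony replicate 1 or 2 (adjusted p = 0.0036 and 0.0039).

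Il1rn, the IL-1 receptor antagonist gene (probe mMC015067), measured 7.75 and 7.64 in PGC colonies, 7.42 and 7.85 in GSC colonies, and 6.99 and 7.48 in sorted cells. A single array, GSC colony replicate 2, reached the limit of measurement, so Il1rn was not tested and no fold is given.

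Among the receptor genes, Il1r1, the signalling receptor of IL-1α and IL-1β (probe PH_mM_0001358), measured 12.99 and 12.47 in PGC colonies, 12.88 and 13.02 in GSC colonies, and 11.09 and 10.94 in sorted cells. Every colony array was above every sorted array. Il1r1 rose by 1.72 ± 0.19 in PGC colonies (adjusted p = 0.00051) and by 1.94 ± 0.19 in GSC colonies (adjusted p = 3e-04), or 3.28-fold and 3.83-fold. The receptor thus stood opposite to its ligands in these data: Il1r1 was higher and Il1b lower in both kinds of colony than in sorted cells.

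Il6st, the gp130 gene (probe mMR029779), measured 11.96 and 11.45 in PGC colonies, 12.69 and 12.71 in GSC colonies, and 10.80 and 10.46 in sorted cells. The groups followed one another without overlap, with GSC colonies at the top. Il6st rose by 1.07 ± 0.20 in PGC colonies (adjusted p = 0.0054) and by 2.07 ± 0.20 in GSC colonies (adjusted p = 3e-04), or 2.10-fold and 4.19-fold.

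Il6ra, the ligand-binding IL-6 receptor chain, was measured by a pair of probes that disagreed. The brighter one (PH_mM_0013899) gave 8.92 and 9.26 in PGC colonies, 9.98 and 9.86 in GSC colonies, and 9.05 and 9.26 in sorted cells. On it Il6ra rose by 0.76 ± 0.15 in GSC colonies against sorted cells (adjusted p = 0.0075), and PGC colonies differed by -0.07 ± 0.15 (adjusted p = 0.76), with a 95% interval of -0.43 to 0.29. The other probe (mMC008481) gave 9.12 and 9.22 in PGC colonies, 9.51 and 8.64 in GSC colonies, and 8.27 and 9.23 in sorted cells, with wide gaps inside both testicular groups and no difference past the threshold (adjusted p = 0.42 for PGC colonies and 0.53 for GSC colonies against sorted cells). The GSC colony call was lost with the mean of both probes (0.54, adjusted p = 0.12) and without CD49f+ sorted replicate 1 (0.66, adjusted p = 0.054).

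**Figure D2:**
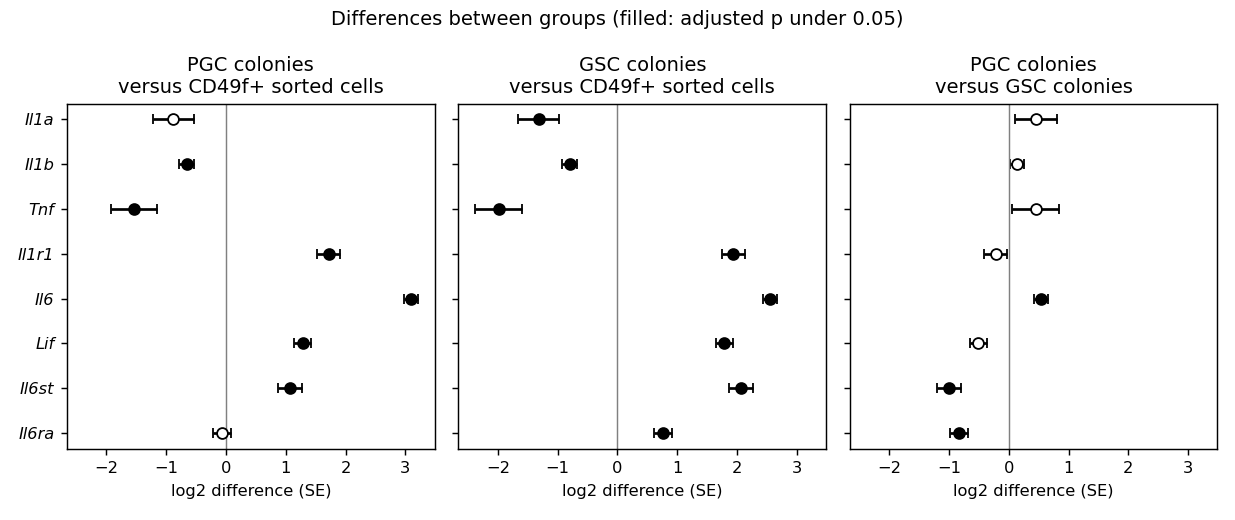
Log2 differences of the 8 tested members in the 3 comparisons, as first-named minus second-named group, with bars of 1 SE and filled points at an adjusted p under 0.05; n = 2 arrays per group. Il6, Lif, Il1r1 and Il6st lie right of 0 and Il1a, Il1b and Tnf left of it in both comparisons with sorted cells, where the Il6 and Lif differences involve sorted levels under the limit of measurement.

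PGC colonies were then set against GSC colonies, grown under the same conditions from gonads of different age. Il6 was higher in PGC colonies, and the receptor genes Il6st and Il6ra were lower. Of the 8 members 1 rose and 2 fell, where 15.1% of all genes were called (7.08% higher, 7.98% lower); the median difference was -0.04 over the members and 0.01 over all genes tested. Il6 rose by 0.54 ± 0.12 (1.45-fold, adjusted p = 0.031), a call lost on leaving out any 1 of the 6 arrays (adjusted p = 0.054 to 0.14), and in a fit of the 4 arrays compared and with the replicate number as a block (adjusted p = 0.063 for both). Il6st fell by 1.00 ± 0.20 (adjusted p = 0.022), which was -0.74 without PGC colony replicate 2 (adjusted p = 0.073).

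Il6ra fell by 0.83 ± 0.15 on its brighter probe (adjusted p = 0.017), and the dimmer probe gave 0.10 ± 0.38 (adjusted p = 0.89). That call was lost with the mean of both probes (-0.36, adjusted p = 0.38) and without PGC colony replicate 1 (-0.66, adjusted p = 0.054). Lif was 0.51 ± 0.14 lower in PGC colonies with no overlap between the groups, but did not pass (adjusted p = 0.056; 95% interval -0.85 to -0.17). Il1r1 differed by -0.22 ± 0.19 and Il1b by 0.14 ± 0.12 (adjusted p = 0.48 for both), with 95% intervals of -0.68 to 0.24 and -0.15 to 0.43.

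Tnf and Il1a rested on which GSC colony array was used. Tnf differed by 0.45 ± 0.39 (adjusted p = 0.50), by 1.10 without GSC colony replicate 1 (adjusted p = 0.006) and by -0.21 without replicate 2 (adjusted p = 0.57). Il1a differed by 0.45 ± 0.35 (adjusted p = 0.45), by 0.97 without replicate 1 (adjusted p = 0.026) and by -0.09 without replicate 2 (adjusted p = 0.85).

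Gene by gene, the order of the 3 groups was as follows. For Il6 it was PGC colonies, GSC colonies and sorted cells, with the call between the colony groups lost on leaving out any single array. For Il6st and Lif it was GSC colonies, PGC colonies and sorted cells, with the colony groups not separated by the test for Lif. For Il1r1 the colony groups were not separated from each other and both lay above sorted cells. For Il1b and Tnf sorted cells came first and the colony groups were not separated.

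By Euclidean distance between profiles centred on their mean over the 6 arrays, the genes closest to Il6 were Cspg4, a proteoglycan gene of pericytes, and Bves, of the Popeye family (distance 0.22 for both), followed by Bbc3, a pro-apoptotic gene of the BCL-2 family (0.26). The genes closest to Il6st were the homeobox gene Hoxa3 and Taf7l, a germ cell transcription factor subunit (0.27 for both), and Nsg1 (0.30), which encodes an endosomal protein of neurons. The other members spanned less than the 2 log2 units between group means that were asked for.

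The other genes of these pathways were described by lists, read against the shares of all genes called higher and lower given above. As with Il6 and Lif, some genes with a lower-bound fold passed the filter only where they were high. Among them were Il33, Serpina3n, Mmp3 and S100a8 through the colony arrays, Irak3, Saa3 and Zbtb16 through the GSC colony arrays, and Il1rapl2 through the PGC colony arrays. Ltb, Casp1, Pf4, S100a9 and Sigirr passed only through the sorted arrays. Folds and p-values of these genes describe them alone and support nothing about a list, and the list counts and medians include them.

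Among the remaining ligands and receptors of the IL-1 family, the share called lay near that of all genes. Of 16 on the array 10 were tested: 2 rose and 3 fell in PGC colonies against sorted cells (median 0.10; -0.02 over all genes), and 4 rose and 2 fell in GSC colonies (median 0.25; -0.01 over all genes), where 46% and 47.1% of all genes were called. Il1rapl2, 1 of the 4, lay under the limit of measurement in both groups compared. The rises in PGC colonies were Il33 and Il1rapl2, and Sigirr was among the falls in both kinds of colony. These genes passed the filter only where they were high, so such differences were built into their being tested. Il33, an alarmin that signals through the product of Il1rl1, measured 10.66 and 10.94 in PGC colonies, 9.32 and 9.38 in GSC colonies, and 7.34 and 7.29 in sorted cells. It was at least 7.88-fold higher in PGC colonies and at least 2.88-fold higher in GSC colonies than in sorted cells (adjusted p = 7.9e-06 and 4.8e-05). PGC colonies exceeded GSC colonies by 1.45 ± 0.13 (adjusted p = 0.00094).

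Il1r2, a decoy receptor that binds IL-1 without signalling, rose by 1.24 ± 0.13 in GSC colonies against sorted cells (adjusted p = 0.00039). It fell by 0.54 ± 0.13 in PGC colonies (adjusted p = 0.014), which placed PGC colonies 1.78 ± 0.13 below GSC colonies (adjusted p = 0.00041). Il18, another ligand cut by caspase-1, fell by 1.05 ± 0.11 in PGC colonies and by 0.82 ± 0.11 in GSC colonies (adjusted p = 0.00051 and 0.0015). Il1rap, the co-receptor that IL1R1 needs, is named here after its values were seen: it measured 9.99 and 10.22 in PGC colonies, 6.32 and 10.48 in GSC colonies, and 9.02 and 8.90 in sorted cells, so a single array, GSC colony replicate 1, stood far from the rest. Between PGC and GSC colonies 2 of the 10 genes, Il33 and Il1rapl2, rose and 1 fell (median -0.08, and 0.01 over all genes), where 15.1% of all genes were called.

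Of 11 tested genes of IL-1 processing and receptor signalling, 3 rose and 4 fell in PGC colonies (median 0.33), and 4 rose and 4 fell in GSC colonies (median 0.13), each against sorted cells, where 46% and 47.1% of all genes were called. Irak3, 1 of the 3 that rose in PGC colonies, lay under the limit of measurement in both groups compared. Myd88, the adaptor of IL-1 and Toll-like receptors, rose by 1.77 ± 0.10 and 1.57 ± 0.10 (adjusted p = 3.5e-05 and 4.9e-05). Irak2, a kinase-like partner of Myd88, rose by 0.45 ± 0.11 and 1.44 ± 0.11 (adjusted p = 0.019 and 0.00013). Casp1, the caspase that matures IL-1β, was at least 2.92-fold lower in both kinds of colony (adjusted p = 0.00042 and 8.6e-05), and lay under the limit of measurement on all 4 colony arrays.

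Irak3, an inhibitor of this pathway best known in macrophages, measured 7.73 and 7.80 in PGC colonies, 10.49 and 10.33 in GSC colonies, and 7.17 and 6.89 in sorted cells. GSC colonies exceeded sorted cells at least 6.01-fold, and PGC colonies were at least 6.03-fold below GSC colonies (adjusted p = 8.2e-06 and 0.00013). Tab1, which encodes a partner of the kinase TAK1, fell by 1.43 ± 0.13 in PGC colonies and by 1.57 ± 0.13 in GSC colonies against sorted cells. In PGC against GSC colonies 2 genes of this list rose and 2 fell (median 0.11), where 15.1% of all genes were called. Casp1 was 1 of those that rose, with both groups under the limit of measurement, so no fold is given. The count of rises was 0 to 2 over the alternatives tried.

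In the IL-6 family, Osmr rose and Lifr fell in both kinds of colony against sorted cells, and Il27ra, which also encodes a partner of gp130, was not called (0.67 in PGC colonies, adjusted p = 0.13, and 0.00 in GSC colonies, adjusted p = 0.99). Osmr, the oncostatin M receptor chain, measured 12.12 and 11.86 in PGC colonies, 13.37 and 13.21 in GSC colonies, and 8.71 and 8.75 in sorted cells. It rose by 3.26 ± 0.13 in PGC colonies and by 4.56 ± 0.13 in GSC colonies (adjusted p = 1.1e-05 and 3.1e-06), and PGC colonies were 1.30 ± 0.13 below GSC colonies (adjusted p = 0.0017). Lifr, the LIF receptor chain, measured 11.29 and 10.98 in PGC colonies, 11.28 and 11.31 in GSC colonies, and 12.20 and 12.18 in sorted cells. Lifr fell by 1.06 ± 0.13 in PGC colonies and by 0.90 ± 0.13 in GSC colonies against sorted cells (adjusted p = 0.00099 and 0.002), and its other probe differed by -0.68 and -0.96 (adjusted p = 0.0025 and 0.00055).

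Of the 10 tested genes of this list, Osmr included, 1 rose and 3 fell in PGC colonies (median -0.08) and 2 rose and 3 fell in GSC colonies (median -0.09) against sorted cells, and 0 rose and 2 fell between PGC and GSC colonies (median -0.04), where 46%, 47.1% and 15.1% of all genes were called. Il11, a cytokine of the family, rose by 0.66 ± 0.12 in GSC colonies (adjusted p = 0.0046), and PGC colonies were 0.76 ± 0.12 below them (adjusted p = 0.0088). Ebi3, a subunit of IL-27, fell by 1.10 ± 0.14 in PGC colonies and by 1.20 ± 0.14 in GSC colonies against sorted cells (adjusted p = 0.001 and 0.00069).

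Among 14 tested JAK, STAT and SOCS genes, 2 rose and 4 fell in PGC colonies (median 0.02) and 3 rose and 4 fell in GSC colonies (median 0.16), against 46% and 47.1% of all genes called. Stat3, the main transcription factor of gp130 signalling, measured 9.39 and 9.44 in PGC colonies, 10.26 and 10.42 in GSC colonies, and 8.10 and 7.85 in sorted cells. It rose by 1.44 ± 0.13 in PGC colonies and by 2.36 ± 0.13 in GSC colonies (adjusted p = 0.00023 and 2.8e-05). Socs3, a feedback inhibitor that STAT3 induces, rose in GSC colonies by 1.75 ± 0.18 (adjusted p = 0.00043), and PGC colonies were 1.65 ± 0.18 below GSC colonies (adjusted p = 0.0024).

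Jak2, a kinase of cytokine receptors, rose by 1.00 ± 0.13 in PGC colonies and by 1.44 ± 0.13 in GSC colonies. Cish, a feedback inhibitor best known as a STAT5 target, differed by -2.18 ± 0.26 in PGC colonies and by -2.05 ± 0.26 in GSC colonies against sorted cells (adjusted p = 0.00072 and 0.00094). Socs2, of the same kind, differed by -1.51 ± 0.14 and -1.56 ± 0.14 (adjusted p = 0.00029 and 0.00024). In PGC against GSC colonies 0 of these genes rose and 2 fell (Socs3 and Stat3; median -0.15), where 15.1% of all genes were called.

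Genes known to respond to IL-6 and its relatives were counted next. Of 12 tested, 7 rose and 1 fell in GSC colonies against sorted cells (median 1.92; -0.01 over all genes), 5 rose and 2 fell in PGC colonies (median 0.32; -0.02 over all genes), and 0 rose and 6 fell in PGC colonies against GSC colonies (median -0.94; 0.01 over all genes). Of all genes, 22.5% rose and 24.5% fell in the first of these comparisons, 22.8% and 23.2% in the second, and 7.08% and 7.98% in the third. Saa3, 1 of the 5 that rose in PGC colonies, lay under the limit of measurement in both groups compared. It passed the filter only through the GSC colony arrays, and Serpina3n only through the colony arrays. Their differences from groups under the limit were thus built into their being tested, and both enter these counts and medians. Serpina3n, an acute-phase protease inhibitor, measured 10.54 and 10.83 in PGC colonies, 14.18 and 14.06 in GSC colonies, and 6.70 and 7.05 in sorted cells. It was at least 7.27-fold higher in PGC colonies than in sorted cells (adjusted p = 1.3e-05), and fell by 3.43 ± 0.17 there against GSC colonies (adjusted p = 9.8e-05).

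Lbp, the lipopolysaccharide-binding protein gene, was high in GSC colonies alone of the 3 groups. It measured 8.79 and 9.02 in PGC colonies, 13.76 and 13.69 in GSC colonies, and 9.02 and 8.81 in sorted cells, and PGC colonies were 4.83 ± 0.13 below GSC colonies (adjusted p = 1.9e-05). Timp1, a metalloproteinase inhibitor, rose by 3.55 ± 0.11 in PGC colonies and by 3.31 ± 0.11 in GSC colonies against sorted cells. Pim1, a kinase gene induced by STATs, fell by 1.73 ± 0.11 and 0.64 ± 0.11 (adjusted p = 5.4e-05 and 0.0039).

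**Figure D3:**
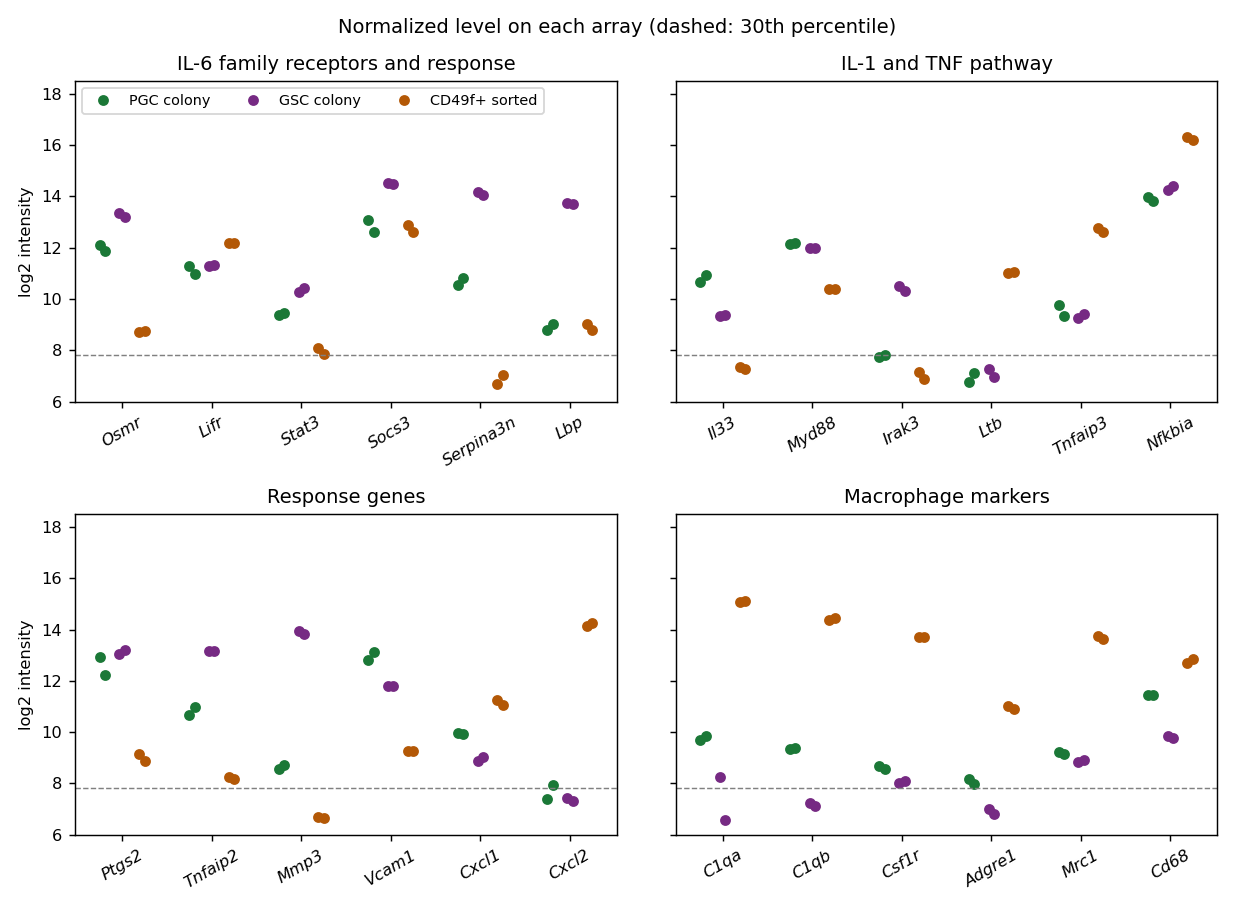
Normalized log2 intensity of genes of the pathways and of macrophage markers on each array, coloured by group, with the 30th percentile of all probes (7.82) as a dashed line. Osmr, Stat3 and Serpina3n are lowest and Ltb, Tnfaip3, Nfkbia and Cxcl2 highest on the sorted arrays, as are all 6 macrophage markers; the genes shown were chosen after their values were seen.

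The TNF list held 20 tested genes, of which 2 rose and 3 fell in PGC colonies (median -0.03) and 5 rose and 3 fell in GSC colonies (median 0.16) against sorted cells, where 46% and 47.1% of all genes were called. Over the alternatives the rises ranged over 0 to 10 in PGC colonies and 3 to 15 in GSC colonies. Ltb, a TNF-family ligand of lymphocytes and related cells, measured 6.76 and 7.11 in PGC colonies, 7.28 and 6.95 in GSC colonies, and 11.01 and 11.06 in sorted cells. Its deficit was at least 9.31-fold in PGC colonies and at least 9.29-fold in GSC colonies (adjusted p = 1.1e-05 for both). Tnfaip3, which encodes the NF-κB feedback inhibitor A20, differed by -3.13 ± 0.17 in PGC colonies and by -3.36 ± 0.17 in GSC colonies (adjusted p = 2.9e-05 and 1.9e-05). Tnfrsf1a, the widely expressed TNF receptor, rose by 0.86 ± 0.19 and 0.93 ± 0.19 (adjusted p = 0.012 and 0.0085), opposite in direction to Tnf itself.

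Tnfrsf1b, the other TNF receptor, rose by 0.75 ± 0.14 in GSC colonies against sorted cells (adjusted p = 0.0046) and fell by 0.70 ± 0.14 in PGC colonies against GSC colonies (adjusted p = 0.019). Between PGC and GSC colonies 0 genes of the TNF list rose and 5 fell (median -0.22), where 7.08% and 7.98% of all genes did. The 5 were 0 to 3 on leaving out any 1 array, with 0 without GSC colony replicate 1, 1 in a fit of the 4 arrays compared and 2 with the replicate block. Cflar, an inhibitor of caspase-8, fell on its brighter probe by 0.76 ± 0.15 (adjusted p = 0.023), and a dimmer probe gave 0.11 (adjusted p = 0.71).

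NF-κB genes were called in both directions. Of 9 tested, 2 rose and 4 fell in PGC colonies (median -0.19) and 3 rose and 3 fell in GSC colonies (median -0.13) against sorted cells, where 46% and 47.1% of all genes were called. Relb and Nfkb2, which form the dimer of the non-canonical pathway, rose by 1.40 ± 0.13 and 1.20 ± 0.12 in PGC colonies and by 1.28 ± 0.13 and 0.95 ± 0.12 in GSC colonies. Nfkbia, the inhibitor IκBα and itself an NF-κB target, fell by 2.36 ± 0.12 in PGC colonies and by 1.92 ± 0.12 in GSC colonies (adjusted p = 2.5e-05 and 4.7e-05). Rel, a subunit of blood cells, fell by 1.24 ± 0.14 and 1.38 ± 0.14. Bcl3, a nuclear IκB protein, fell by 1.53 ± 0.12 in PGC colonies against GSC colonies (adjusted p = 0.00062), where 0 genes rose and 2 fell (median 0.13; 15.1% of all genes called). The 2 were 1 on leaving out any 1 array other than PGC colony replicate 2.

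Genes known to respond to IL-1 and TNF were also called in both directions. Of 23 tested, 10 rose and 7 fell in PGC colonies (median 0.24) and 8 rose and 8 fell in GSC colonies (median 0.04) against sorted cells, where 46% and 47.1% of all genes were called. The genes that rose included Ptgs2, the inducible cyclooxygenase, by 3.58 ± 0.24 in PGC colonies and 4.13 ± 0.24 in GSC colonies (adjusted p = 6.7e-05 and 3.4e-05). Vcam1, an adhesion molecule, rose by 3.70 ± 0.13 in PGC colonies (adjusted p = 6.7e-06). Tnfaip2 rose by 2.59 ± 0.14 and 4.94 ± 0.14.

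The genes that fell included neutrophil-attracting chemokines. Cxcl2 measured 7.38 and 7.94 in PGC colonies, 7.42 and 7.32 in GSC colonies, and 14.13 and 14.27 in sorted cells, and was at least 83.5-fold lower in GSC colonies (adjusted p = 2.8e-06). Cxcl1 fell by 2.21 ± 0.12 in GSC colonies (adjusted p = 2.9e-05), and Lcn2, an iron-carrier-binding protein of the acute phase, by 3.19 ± 0.12 in PGC colonies (adjusted p = 8.6e-06).

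Against GSC colonies, in PGC colonies 5 genes of the response list rose and 5 fell (median -0.02), where 15.1% of all genes were called. Mmp3, a matrix metalloproteinase, measured 8.56 and 8.70 in PGC colonies, 13.93 and 13.81 in GSC colonies, and 6.68 and 6.67 in sorted cells, and fell by 5.24 ± 0.11 in PGC colonies against GSC colonies (adjusted p = 1.1e-05). Mmp9, another metalloproteinase, had the opposite order and rose by 3.11 ± 0.13 (adjusted p = 7.3e-05).

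**Figure D4:**
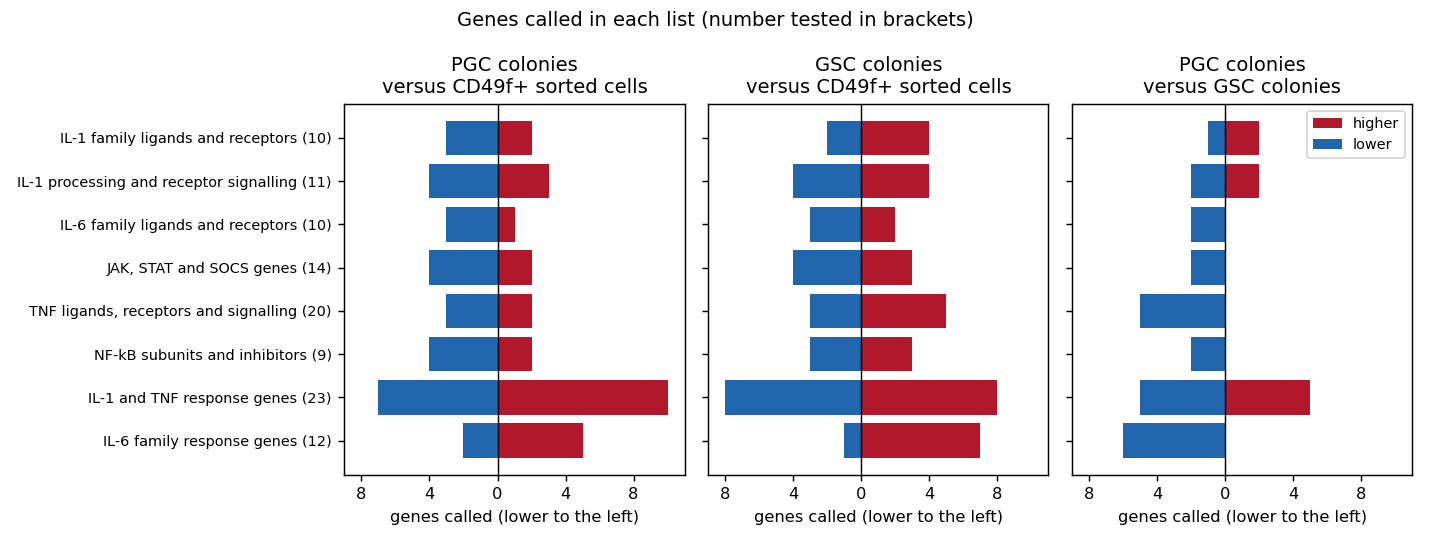
Number of genes called higher (right, red) and lower (left, blue) at an adjusted p under 0.05 in each of the 8 pathway lists, with the number tested in brackets, in the 3 comparisons. Of 12 tested, the IL-6 family response list has 7 genes higher and 1 lower in GSC colonies against sorted cells. It has 0 higher and 6 lower in PGC colonies against GSC colonies. Saa3 and Serpina3n, which passed the filter only where they were high, are in these counts. Of all genes, 22.5% were higher and 24.5% lower in the former comparison, and 7.08% and 7.98% in the latter.

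Markers of cell types that make or receive these signals were counted too, beside the shares of all genes called. Against sorted cells, 22.8% of all genes rose and 23.2% fell in PGC colonies, and 22.5% and 24.5% in GSC colonies. Between PGC and GSC colonies 7.08% rose and 7.98% fell. All 15 tested macrophage and leukocyte markers fell in PGC colonies and in GSC colonies against sorted cells (median -3.26 and -4.82), the direction of Il1b and Tnf. The summed normalized intensity of the 17 markers on the array was 10376 to 10780 in PGC colonies, 7139 to 7397 in GSC colonies, and 146408 to 149756 in sorted cells. C1qa, a complement gene of tissue macrophages, measured 9.70 and 9.84 in PGC colonies, 8.26 and 6.56 in GSC colonies, and 15.07 and 15.10 in sorted cells. For Pf4, a platelet chemokine gene also used as a macrophage marker, the deficit in GSC colonies was at least 59.2-fold. Of the 17 markers, 3 lay under the limit of measurement on both PGC colony arrays, 7 on both GSC colony arrays, C1qb and Adgre1 among them, and 2 on both sorted arrays. PGC colonies exceeded GSC colonies in 9 of the 15, among them Pf4 with both groups under the limit, and were lower in 1 (median 0.62). The part of macrophages in the levels of Il1a, Il1b and Tnf was not tested.

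Neutrophil markers fell in 6 of 8 cases and rose in 1 in both kinds of colony (median -1.04 in PGC and -0.99 in GSC colonies), with a summed intensity of 3951 to 4445 in PGC colonies, 4615 to 4992 in GSC colonies and 16618 to 17217 in sorted cells. S100a9, a calcium-binding protein gene of neutrophils, was at least 35.4-fold lower in GSC colonies than in sorted cells. S100a8, another marker of this list, was at least 1.08-fold higher there (limma adjusted p = 0.0015), with both sorted arrays under the limit of measurement. Mast cell markers fell in 2 of 5 cases in both, and T and innate lymphoid markers in 2 of 5 in PGC colonies, where 2 also rose, and in 3 of 5 in GSC colonies. With 46% and 47.1% of all genes called in these comparisons, the mast cell and lymphoid counts are not read as a result. In PGC against GSC colonies limma called 0 of the neutrophil and 0 of the mast cell markers, with 1 and 0 at an unadjusted p under 0.05, and 1 lymphoid marker rose.

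Fibroblast and mesenchyme markers were higher where Il6, Lif, Il1r1 and Il6st were, against sorted cells. All 11 tested rose in PGC colonies (median 4.13) and in GSC colonies (median 4.71) against sorted cells, and the summed intensity of the 12 on the array was 318324 to 331213 in PGC colonies, 570799 to 582594 in GSC colonies and 23775 to 26588 in sorted cells. Postn, the gene of the matrix protein periostin, rose by 5.77 ± 0.14 in GSC colonies. Against GSC colonies 2 of the 11 rose and 6 fell in PGC colonies (median -0.44), while Il6 rose there and Il6st fell. Peritubular myoid markers rose in 3 of 4 cases and fell in 1 in PGC colonies, rose in 4 of 4 in GSC colonies, and fell in 4 of 4 between PGC and GSC colonies. Col1a1 and Cnn1 lay under the limit in every group. The part of mesenchymal cells in these results was not tested.

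Sertoli cell markers fell in 10 of 10 cases in PGC colonies and 9 of 10 in GSC colonies against sorted cells, and endothelial markers in 10 of 10 and 9 of 10, with 1 rise in GSC colonies. Between PGC and GSC colonies 1 Sertoli cell marker rose and 2 fell, and 1 endothelial marker rose and 2 fell, each of 10 tested. There 7.08% of all genes rose and 7.98% fell. Leydig cell markers fell in 2 of 4 cases in both kinds of colony, rose in 1 in GSC colonies, and fell in 2 between PGC and GSC colonies. Of 12 germ cell markers, which bear on the labels, 9 were tested: 0 rose and 3 fell in PGC colonies, 5 rose and 1 fell in GSC colonies, and 0 rose and 5 fell between PGC and GSC colonies. Against sorted cells, Dazl rose by 1.45 ± 0.18 and Dnd1 fell by 0.92 ± 0.15 in GSC colonies (limma adjusted p = 0.00089 and 0.0028). Zbtb16, which passed the filter only through the GSC colony arrays, was at least 6.17-fold higher there. Ddx4, the germ cell helicase gene, measured 9.96 and 9.72 in PGC colonies, 10.24 and 10.27 in GSC colonies, and 10.10 and 9.89 in sorted cells. Dppa3, Taf4b and Sall4 lay under the limit in every group. Dazl did so on both PGC colony arrays, and Zbtb16 on the PGC colony and sorted arrays.

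Dissociation and immediate early genes, which handling of fresh cells can raise, fell in 8 of 12 cases and rose in 1 in PGC colonies (median -1.30), and fell in 10 and rose in 1 in GSC colonies (median -1.48), against sorted cells. Fosb, a subunit of AP-1, fell by 3.01 ± 0.26 in GSC colonies. Between PGC and GSC colonies 3 of the 12 rose and 2 fell (median 0.16). The part of cell handling in the levels of Tnf, Il1a, Il1b and Cxcl2 was not tested. Culture, the oxygen condition on the labels, selection by CD49f and the time since dissociation differ together between colonies and sorted cells. They cannot be told apart. PGC colonies and sorted cells also differ in developmental stage.

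The median deposited intensity lay between 541 and 606 on the colony arrays and was 393 and 406 on the sorted arrays. Pearson's r across probes, a description since probes are not replicates, was 0.992 between the PGC colony arrays, 0.983 between the GSC colony arrays and 0.992 between the sorted arrays.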

How the data were processed

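Each of 6 arrays measured Cy5-labelled RNA of 1 sample, amplified from total RNA per the labels' protocols. The values deposited by the authors are linear probe intensities, below 0 on 4 arrays (52 to 474 probes), as background subtraction can leave them. No source used here states the scanner, software, background method or scaling. Of 26423 probes, 21876 carried 1 gene symbol, 0 several and 4547 none in the series' probe table, and 21825 had an Entrez identifier in the RefSeq gene table.

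In R 4.3.3, limma 3.58.1 was used for normexp background correction (offset 50), a log2 step and quantile normalization. The probe with the highest mean stood for a gene. Genes at or above the 30th percentile of the array on at least 2 of 6 arrays were tested with lmFit and eBayes, a mean per group over all 6 arrays, 3 residual degrees of freedom and no block. Precision is limited by the 2 arrays per group.

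The members and the 19 gene lists (8 of pathways, 11 of markers) were chosen with earlier results of these data known. Named from a pathway list were up to 3 genes with the largest rise and 3 with the largest fall called in each comparison, some of which are left out of the text; from a marker list, up to 2 each in GSC colonies against sorted cells. Genes outside that rule were chosen after their values were seen. Other normalization, background, filter, probe, sample and block choices were tried. Replicate numbers were not used as pairs in the main fit. Deviations of same-numbered arrays correlated at -0.345 (GSC colonies and sorted cells), -0.224 (PGC and GSC colonies) and 0.312 (PGC colonies and sorted cells). Whether arrays of different groups share a preparation or a batch, under these or other numbers, is not stated and was not tested.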

Additional observations from a re-analysis of the deposited data

How the results depend on the processing

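Of 24 differences of members, 20 kept their sign in every one of 16 alternatives tried, and 11 also kept their side of the threshold. Calls of Il1r1 and Il6st in both kinds of colony against sorted cells, and of Tnf in GSC colonies, held in each alternative. Those of Il6 and Lif did too, which is no sign of stability since both passed the filter only through the arrays where they were high; Lif did not pass it at the 50th percentile. Signs turned for Il6ra in PGC colonies against sorted cells without normalization between arrays (0.33), with the mean of its probes (0.18), without CD49f+ sorted replicate 2 (0.04) and without PGC colony replicate 1 (0.10; -0.24 to 0.10 over the arrays left out). In PGC against GSC colonies they turned for Il1a (-0.09, range -0.09 to 0.97) and Tnf (-0.21, range -0.21 to 1.10) without GSC colony replicate 2, and for Il1r1 without PGC colony replicate 2 (0.04, range -0.48 to 0.04). Leaving out 1 array at a time, 1 to 4 members and 1445 to 2039 genes were called in PGC against GSC colonies, compared with 3 and 2329 with all arrays; the counts were 1445 without GSC colony replicate 1 and 1527 without PGC colony replicate 2, and 1 member without either PGC colony array. With the replicate block 2 members and 1707 genes were called there, 8 members and 6804 genes in GSC colonies against sorted cells, and 6 members and 6637 genes in PGC colonies against sorted cells; the block ended the Il6 call in PGC against GSC colonies and no other member call. With the GSC colony numbers crossed, an alternative chosen after seeing the data, the counts of genes were 2703, 7831 and 7672. Of 114 counts over lists, 55 stayed within 1.5 times in each alternative. Levels under the 30th percentile (Il1rn in all groups but for 1 array, Il6 and Lif in sorted cells) limit what these arrays can show.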
